A study of Mus musculus with 18 samples.

Results

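Chromatin accessibility was examined at 7 mouse genes whose products sit on the surface of macrophages and other antigen-presenting cells and meet receptors on T cells: the PD-1 ligands Cd274 and Pdcd1lg2, the CD28 and CTLA-4 ligands Cd80 and Cd86, the ICOS ligand Icosl, the receptor Cd40 and the surface protein Cd83. The genes were chosen by name and function, and the window of each comprised the gene body plus 50000 bp to each side of its most upstream start in GENCODE release M21. These windows held 134 of the 82391 reference peaks, 152 of the 84660 summits and 73 of the 59617 extended regions of the catalog, each counted once. Cd274 and Pdcd1lg2 are neighbours and share 12 summits, so that counting by gene gives 164 summits.

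The cells were wild type bone marrow-derived macrophages (BMDMs), which the study obtained from male C57/BL6 mice. All groups received the vehicle DMSO for 1 h. They then got no stimulus, lipopolysaccharide (LPS, a bacterial activator of Toll-like receptors) at 10 ng/mL, or IL-4, a cytokine of type 2 immunity, at the same dose, for 30 min, 1 h, 2 h or 4 h. These 9 groups of 2 libraries (18 libraries) were profiled by ATAC-seq, in which the Tn5 transposase tags exposed DNA. The 3 lists analysed here, of reference peaks, summits and extended regions, were pooled over all libraries and carry no column per library. How LPS and IL-4 acted, the time course, the depth of a library and the variation between replicates were not analysed here for that reason, and every value below describes the catalog as a whole, without a test. A summit is the point of highest signal within a peak, and its score is the authors' own value, whose scale is not stated. Scores over all summits had a median of 737 (interquartile range 486 to 1153, range 102 to 2781).

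T cells need a costimulatory signal beside the antigen receptor. CD80 and CD86 (B7-1 and B7-2) give it through CD28 and withdraw it through CTLA-4, whereas PD-L1 (from Cd274) and PD-L2 (from Pdcd1lg2) inhibit T cells through PD-1. CD40 receives the CD40 ligand of helper T cells and activates NF-kB through TRAF proteins, ICOS ligand engages ICOS on activated T cells, and CD83, a maturation marker of dendritic cells, limits the removal of MHC class II and CD86 by MARCH ubiquitin ligases. Interferons induce Cd274 through STAT and IRF factors, IL-4 induces Pdcd1lg2 through STAT6, and Toll-like receptor signals induce Cd40, Cd80, Cd86 and Cd83, in large part through NF-kB.

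The sequence at the summit of each start site peak is given first, because the 7 start sites differed widely in score. Each sequence comprises 201 bases of mm10 centred on the best scored summit within 1000 bp of a start site of the gene, 5′ to 3′ in the direction of transcription, with matches to the searched consensus sequences of transcription factors in capitals. The Cd274 window (chr19:29367277-29367477, plus strand), the Cd80 window (chr16:38458738-38458938, plus strand), the Cd86 window (chr16:36665958-36666158, minus strand) and the Icosl window (chr10:78069186-78069386, plus strand) held no match. The Pdcd1lg2 window (chr19:29410764-29410964, plus strand) held a STAT6 match, the Cd40 window (chr2:165055522-165055722, plus strand) an NF-kB match, and the Cd83 window (chr13:43785044-43785244, plus strand) an SP/KLF match followed by 3 NF-kB matches, of which 2 overlap.
Cd274: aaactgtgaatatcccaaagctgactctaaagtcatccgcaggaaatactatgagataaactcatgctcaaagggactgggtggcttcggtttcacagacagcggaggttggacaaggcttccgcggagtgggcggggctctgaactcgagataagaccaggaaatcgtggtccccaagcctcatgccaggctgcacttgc
Pdcd1lg2: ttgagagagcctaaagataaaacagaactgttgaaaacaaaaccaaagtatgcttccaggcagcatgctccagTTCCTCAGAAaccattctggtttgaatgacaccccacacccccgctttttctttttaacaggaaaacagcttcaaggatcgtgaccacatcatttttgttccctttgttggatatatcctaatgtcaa
Cd80: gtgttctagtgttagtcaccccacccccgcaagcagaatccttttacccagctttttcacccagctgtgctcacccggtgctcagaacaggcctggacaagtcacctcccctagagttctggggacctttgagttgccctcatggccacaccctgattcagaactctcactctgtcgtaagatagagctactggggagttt
Cd86: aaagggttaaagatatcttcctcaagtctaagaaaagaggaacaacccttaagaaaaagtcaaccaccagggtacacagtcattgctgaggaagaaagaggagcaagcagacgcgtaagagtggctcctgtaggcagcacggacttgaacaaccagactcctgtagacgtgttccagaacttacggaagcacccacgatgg
Icosl: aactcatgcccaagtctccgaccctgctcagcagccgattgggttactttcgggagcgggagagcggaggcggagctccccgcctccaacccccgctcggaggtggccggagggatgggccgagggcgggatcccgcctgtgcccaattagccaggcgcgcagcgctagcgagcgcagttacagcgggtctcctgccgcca
Cd40: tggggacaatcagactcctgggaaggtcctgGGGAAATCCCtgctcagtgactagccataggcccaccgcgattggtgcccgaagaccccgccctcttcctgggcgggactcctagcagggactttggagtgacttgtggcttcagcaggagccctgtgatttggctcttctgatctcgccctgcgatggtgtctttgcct
Cd83: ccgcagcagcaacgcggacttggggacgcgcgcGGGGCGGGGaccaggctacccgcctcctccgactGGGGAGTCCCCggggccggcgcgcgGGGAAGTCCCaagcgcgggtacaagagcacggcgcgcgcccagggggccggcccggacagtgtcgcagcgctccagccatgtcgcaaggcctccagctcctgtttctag

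Accessible start sites, defined by a reference peak within 1000 bp, were found for all 7 genes and for 12402 of 21938 protein-coding genes (56.5%). When only the most upstream start site was used, the count was 6 of 7, as compared to 11424 genes (52.1%), and the gene without a peak was Cd80. Among the 12402 genes with a start site peak the median of the best score was 1456 (interquartile range 1071 to 1799).

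Cd40 and Cd83 were above this median, with start site scores of 1760 and 1734, respectively. Icosl was just below it, with 1443. Cd274 (1071) was at the lower quartile and Cd86 (900) below it. Cd80 and Pdcd1lg2 formed a pair at the bottom of the distribution. Cd80 scored 341, with lower values for 84 of the 12402 genes, and Pdcd1lg2 scored 307, with lower values for 56. Their place depended on the distance allowed. Within 500 bp the scores were the same, whereas within 2500 bp the best scores were 1619 for Cd80 and 1284 for Pdcd1lg2, with lower values for 8042 and 5060 of 13141 genes, and those of the other 5 genes were as given. The score of 1284 belongs to a summit 8705 bp past the first Pdcd1lg2 start. It was counted because it lies 2435 bp from a second annotated start. The spread of the start site scores over libraries is unknown, so that neighbours in this order, such as Cd40 and Cd83 or Cd80 and Pdcd1lg2, cannot be said to differ.

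**Figure D1:**
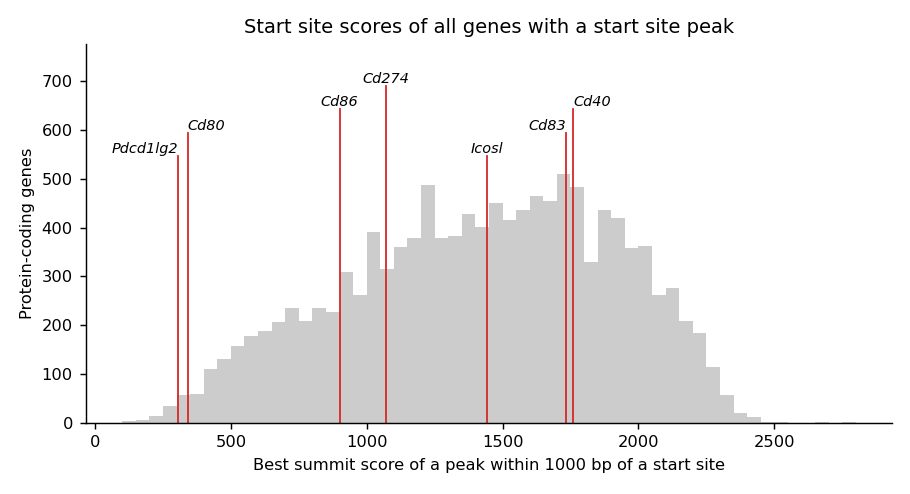
Histogram of the best summit score within 1000 bp of a start site (x axis, authors' score) over the 12402 protein-coding genes with a start site peak (y axis, number of genes). Red lines mark the 7 genes, from Pdcd1lg2 at 307 and Cd80 at 341 to Cd83 at 1734 and Cd40 at 1760.

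In the Pdcd1lg2 window 20 of 23 summits (87.0%) scored above the start site peak, and in the Cd80 window 9 of 12 (75%). Low start site scores fix such shares, since 92.9% and 90.1% of all summits of the catalog exceed the same scores. For Cd86 the number was 6 of 16 (38.1% of all summits exceed its score), for Cd274 4 of 15 (28.6%) and for Cd83 1 of 46 (5.89%). For Cd40 (33 summits) and Icosl (19 summits) the number was 0, as compared to 5.37% and 13.5% of all summits. The observed to expected ratio of CpG dinucleotides within 500 bp of the outermost start, a measure that is high at CpG islands, was 0.170 for Pdcd1lg2, 0.278 for Cd80, 0.315 for Cd86, 0.356 for Cd40, 0.555 for Cd274, 0.638 for Cd83 and 0.692 for Icosl (median of all protein-coding genes 0.552). For Cd80 the outermost start is not the one with a peak, and at the start with a peak (chr16:38458933) the ratio was 0.213. The pair with the lowest scores also had the lowest CpG ratios of the 7 when each was taken at a start with its best peak. Cd40, with the highest start site score of the 7, had a CpG ratio below the median of all genes.

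**Figure D2:**
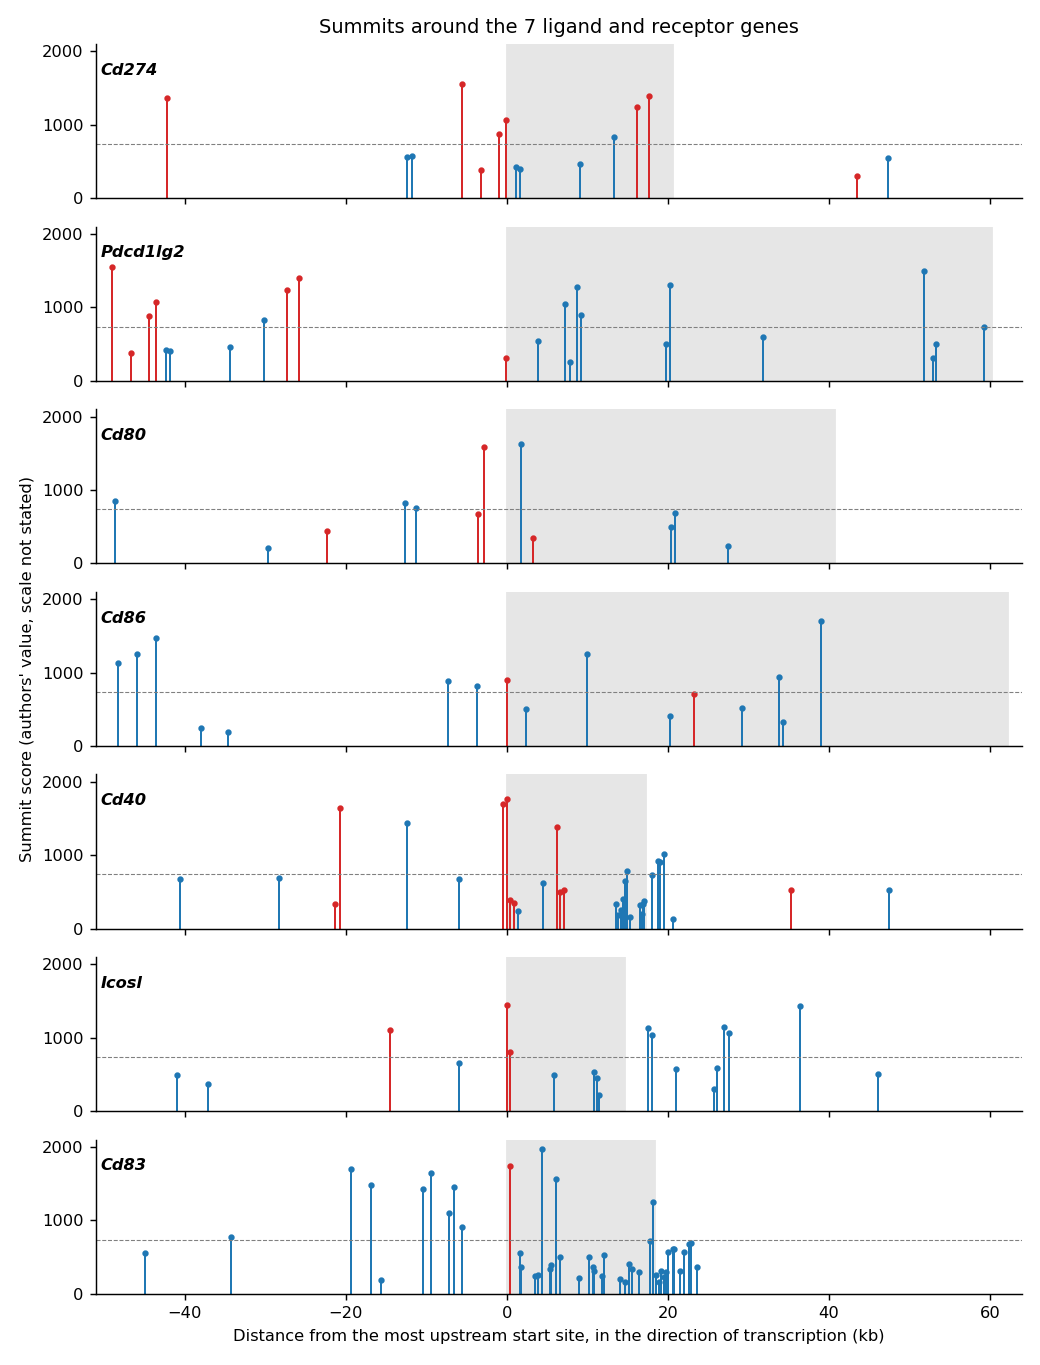
Summits in the window of each gene, as distance from the most upstream start site in the direction of transcription (x axis, kb) and score (y axis, authors' value). Red stems lie within 1000 bp of any annotated start site, blue stems do not, grey marks the gene body, and the dashed line is the median of all summits (737). Cd40 and Cd83 carry a dense run of summits towards and past the end of the gene, mostly below that line.

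Numbers of regions were compared with those of all protein-coding genes measured in the same way. The 7 windows held 9 to 15 extended regions with a median of 11, and the median over 21938 protein-coding genes was 5 (interquartile range 1 to 8). By gene the numbers were 15 for Cd86, 13 for Pdcd1lg2 and Icosl, 11 for Cd274 and Cd40, 10 for Cd83 and 9 for Cd80. The order by summits was different. Cd83 had 46 summits and Cd40 33, followed by Pdcd1lg2 (23), Icosl (19), Cd86 (16), Cd274 (15) and Cd80 (12), as compared to a median of 6 (1 to 12) over all genes. More summits than Cd83 were found for 51 genes and more than Cd40 for 245. The windows of Pdcd1lg2 and Cd86 reached 110 and 112 kb because of their long gene bodies, and the other 5 windows were 100 kb long.

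Of the 152 summits, 82 lay in introns, 52 outside protein-coding genes, 13 in untranslated exons, 3 in coding exons and 2 in other exons. Within 1000 bp of any annotated start site lay 28 summits (18.4%), as compared to 29.3% of all 84660 summits. The summits had a median score of 573 (range 134 to 1969), and the peaks a median width of 230.5 bp, close to the 227 bp of the whole catalog. Peaks with more than 1 summit made up 8.21% (11 of 134), as compared to 2.47% of the catalog, and all 11 are in the Cd83 and Cd40 windows. All 152 summits lay in a stretch of 76 bases, the read length, that occurs once in the genome.

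The PD-1 ligand genes lie one after the other on chromosome 19. Cd274 (mm10 chr19:29367455-29388095, plus strand) starts 65 bp from the start of Plgrkt, a plasminogen receptor gene that runs the opposite way. The start site peak of Cd274 (chr19:29367234-29367429, score 1071) had its summit 78 bp before the Cd274 start and 13 bp from that of Plgrkt, so that its signal cannot be assigned to either gene. A further peak within 1000 bp scored 878. The best score in the window, 1556, was 5538 bp upstream of Cd274 and 44 bp from another Plgrkt start. Of the other genes upstream, Insl6, a relaxin family gene, had a start site peak of 1369, and Rln1, which encodes relaxin, had none. Within Cd274, the first 2 intronic peaks (1192 and 1616 bp from the start) scored 421 and 402, and those at 9101, 13289, 16143 and 17695 bp scored 467, 834, 1236 and 1394.

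The 2 highest intronic summits of Cd274 flanked the annotated start of a noncoding antisense gene at chr19:29384471, at 873 and 679 bp from it. The first of them held an NF-kB match (chr19:29383560-29383569) and a STAT6 match (chr19:29383635-29383644) on either side of the summit, and the second an AP-1 match. A GAS match, a recognition site of the STAT family, was found 2 bp from the summit of the first intronic peak (score 421), and an ISRE match, the site of IRF factors, in the peak at 9101 bp (score 467). The start site window of Cd274, printed above, held neither.

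Pdcd1lg2 (chr19:29410919-29471161, plus strand) begins 43464 bp downstream of the Cd274 start. Its start site peak (chr19:29410737-29410975) scored 307, and the only consensus found there was the STAT6 site at chr19:29410837-29410846. A second annotated start, at chr19:29422059, had no peak within 1000 bp. The best distal summit of the window, 1556, was the one at the Plgrkt start, 49002 bp upstream and beyond Cd274. The gene body held 12 summits. A cluster of 4 in a single extended region (chr19:29417290-29421014) scored 1048, 250, 1284 and 900 at 7169, 7865, 8705 and 9263 bp from the start. Single strong summits followed at 20245 bp (1308) and at 51737 bp (1493), the latter near the far end of the gene.

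The intronic cluster of Pdcd1lg2 held STAT consensus sequences in each of its 4 peaks. Its first summit held an NF-kB and a GAS match, those at 7865 and 8705 bp a STAT6 match each, the latter 2 bp from the summit, and the last a GAS match. A further peak at 31748 bp (score 603) had 2 STAT6 matches, a GAS match and an NF-kB match within 100 bp. In all, 5 of the 23 summits of the Pdcd1lg2 window had a STAT6 match, 4 a GAS match and 3 an NF-kB match, and some of these lie in the part shared with Cd274. Over all summits of the catalog these matches occur at 6.81%, 6.35% and 5.55%, and nothing particular to this window is read from so few summits. A sequence match is a description and does not show that a factor was bound.

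Both CD28 ligand genes are on chromosome 16, on opposite strands. Cd80 (chr16:38455561-38496335, plus strand) has a first annotated start site at which no peak lay within 1000 bp. The peak counted as its start site peak (chr16:38458828-38458976, score 341) was at the next start, chr16:38458933, which is also the start given by RefSeq. The strongest Cd80 summit, with a score of 1619, lay between these starts, 1786 bp past the first one, in the peak chr16:38457189-38457498. The second strongest, 1581, belonged to the start of the neighbour Adprh, an ADP-ribosylarginine hydrolase gene that begins 2858 bp from Cd80. Another neighbour, the phospholipase gene Pla1a, had a start site peak of 439. The remaining intronic summits of Cd80 scored 495, 685 and 234.

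Cd86 (chr16:36603869-36666081, minus strand) had a start site peak at chr16:36665979-36666187 with a score of 900. An internal start of a noncoding Cd86 transcript, at chr16:36642805, had a peak of its own that scored 706 and held an NF-kB match. The best summit of the window (1696) was intronic, 39049 bp from the start, and held an AP-1 match. Other intronic summits ranged from 324 to 1248. Upstream, the summits at 43581, 45884 and 48306 bp scored 1468, 1248 and 1129, and all 3 lie in introns of the neighbour Ildr1, whose own start had no peak within 1000 bp. None of the 12 summits at Cd80 and none of the 16 at Cd86 had a GAS, STAT6 or ISRE match, which over all summits occur at 6.35%, 6.81% and 3.64%. No test was made, and nothing is read from the absence of these matches.

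Distal summits with NF-kB matches are printed for Cd80, Cd86 and Icosl, whose start site sequences above held no match. Cd274 held none there either, and its NF-kB match was less than 1000 bp from the antisense start. The Cd80 window (chr16:38457247-38457447, plus strand) is that of the summit with a score of 1619. The Cd86 window (chr16:36709562-36709762, minus strand) is 43581 bp upstream of the start and has an NF-kB and an AP-1 match (both in capitals) 4 bases apart. The Icosl window (chr10:78105570-78105770, plus strand) is 36368 bp past the start and also has both.
Cd80 distal: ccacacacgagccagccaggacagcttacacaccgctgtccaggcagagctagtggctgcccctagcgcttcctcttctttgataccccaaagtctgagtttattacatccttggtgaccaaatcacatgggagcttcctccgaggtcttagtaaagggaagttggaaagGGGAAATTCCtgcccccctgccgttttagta
Cd86 distal: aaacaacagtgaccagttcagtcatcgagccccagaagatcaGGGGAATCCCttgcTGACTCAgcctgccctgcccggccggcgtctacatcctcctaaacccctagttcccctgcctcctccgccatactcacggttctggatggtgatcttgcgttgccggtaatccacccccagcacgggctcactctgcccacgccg
Icosl distal: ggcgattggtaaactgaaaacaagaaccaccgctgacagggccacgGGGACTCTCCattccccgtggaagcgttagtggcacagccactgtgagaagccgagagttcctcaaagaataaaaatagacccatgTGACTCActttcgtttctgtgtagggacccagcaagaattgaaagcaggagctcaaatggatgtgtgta

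Icosl (chr10:78069302-78083913, plus strand) had a start site peak at chr10:78069133-78069422 with a score of 1443 and a second summit 409 bp past the start (802). Its further annotated starts at chr10:78071161 and chr10:78073339 had no peak within 1000 bp. The gene body scored low beyond this point, with summits of 495, 534, 448 and 219. Past the gene lay 9 of the 19 summits, which included scores of 1129 and 1036 at 17469 and 18013 bp, 1141 and 1059 at 26968 and 27525 bp, and 1431 at 36368 bp from the start. The neighbour Dnmt3l, a cofactor of DNA methyltransferases, had a start site peak of 1106, and Aire, the regulator of self-antigens in the thymus, had none.

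Cd40 (chr2:165055627-165072948, plus strand) had a pair of strong summits at its start, with scores of 1760 (5 bp upstream) and 1696 (467 bp upstream), followed by 393 and 349 at 454 and 886 bp past it. The first held an NF-kB match at chr2:165055553-165055562. The second held a GAS, a STAT6 and an ISRE match, and the STAT6 and ISRE matches overlap. Over all summits GAS, STAT6 and ISRE matches occur at 6.35%, 6.81% and 3.64%, and nothing is read from single summits. Further upstream, a summit with a score of 1443 at 12421 bp had another ISRE match, and the summit of 1644 at 20744 bp lay at the start of the nuclear receptor coactivator gene Ncoa5. Past the gene, 1700025C18Rik had a start site peak of 524. An internal start of a Cd40 transcript with a retained intron, at chr2:165062676, had 3 peaks within 1000 bp. Their summits scored 1381, 505 and 524 at 6191, 6616 and 7046 bp from the outermost start, and the last of these peaks lay over the internal start.

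Cd83 (chr13:43784775-43803132, plus strand) was the only one of the 7 genes whose window contained no start site of another protein-coding gene. Its start site peak (chr13:43785016-43785310, score 1734) had its summit 369 bp past the most upstream start and 41 bp before a second annotated start. The highest score in all 7 windows, 1969, was intronic, 4393 bp from the start (peak chr13:43788938-43789307), with a GAS match 58 bp from the summit. Another intronic summit at 6107 bp scored 1556. Upstream of the gene lay 10 summits, 6 of which scored 1106 or more, between 6531 and 19364 bp from the start. The one at 9357 bp (1644) held an AP-1 match, a GAS match and 3 overlapping NF-kB matches.

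Beyond these strong sites, Cd83 and Cd40 carried long runs of closely spaced, low scored peaks in the 3′ part of the gene and past its end. This was measured as the share of the gene body, without its first 1000 bases, that lay in reference peaks, a measure chosen after values were seen. The share was 44.2% for Cd83 and 21.3% for Cd40, as compared to 7.90% for Icosl, 5.73% for Cd274, 4.59% for Pdcd1lg2, 2.82% for Cd86 and 2.34% for Cd80. Among 11672 protein-coding genes of 10000 to 100000 bp the median was 0.630% and the 99th percentile 10.7%, and only 3 genes exceeded Cd83 and 17 exceeded Cd40. The runs depended on low scored peaks. When only peaks with a summit at or above the median score were used, the shares were 4.89% for Cd83 and 4.67% for Cd40, which 318 and 370 genes exceeded.

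**Figure D3:**
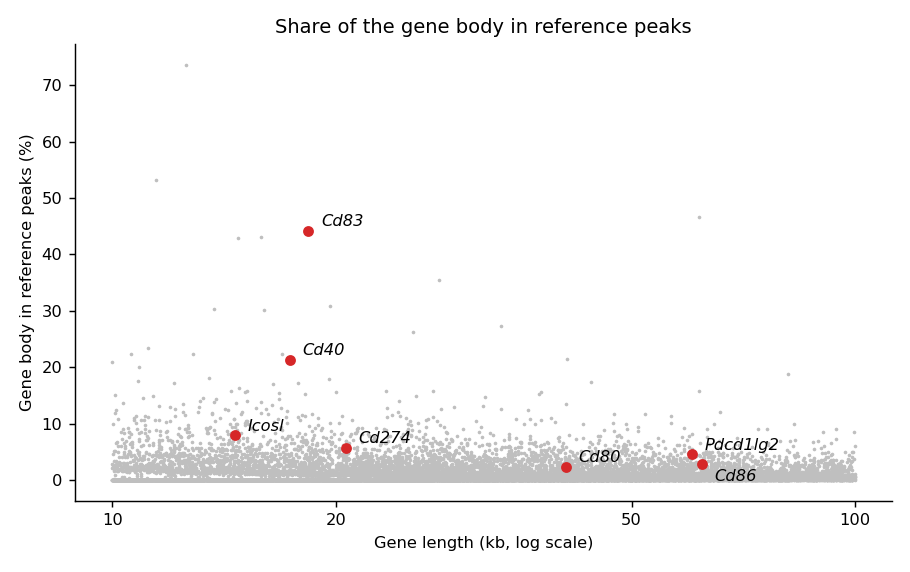
Share of the gene body in reference peaks, without the first 1000 bases (y axis, %), against gene length (x axis, kb, log scale) for 11672 protein-coding genes (grey). The 7 genes are in red. Cd83 (44.2%) and Cd40 (21.3%) stand above nearly all genes of their length, and the other 5 lie between 2.34% and 7.90%.

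In both genes the 3′ part of the body was more covered than the 5′ part. When the body was divided at its midpoint, the share in the 5′ and 3′ part was 34.3% and 54.0% for Cd83, and 14.4% and 28.2% for Cd40. It was 4.29% and 11.5% for Icosl, whereas the 5′ part was the more covered one in Cd274 (6.19% and 5.27%), Pdcd1lg2 (5.66% and 3.52%), Cd80 (3.36% and 1.32%) and Cd86 (3.36% and 2.29%). The 5000 bp past the annotated end were covered to 92.9% at Cd83, and 0 of the 11672 genes had a higher share there. At Cd40 the share was 32.4%, which 43 genes exceeded. It was 8.88% for Icosl, 5.64% for Pdcd1lg2, 5.44% for Cd86 and 0% for Cd274 and Cd80 (median of all genes 0%).

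The run at Cd83 continued in a single extended region, chr13:43797978-43809440, which was 11463 bp wide and held 20 summits in 11 peaks. Only 8 of the 59617 extended regions had more summits. The summits were a median of 443 bp apart and scored 154 to 1248 with a median of 349.5. Peaks covered 69.0% of its width, the widest of them over 1902 bp (chr13:43804455-43806356). The corresponding region at Cd40, chr2:165068455-165077115, was 8661 bp wide with 16 summits in 12 peaks, and 13 extended regions had more. Its summits were a median of 285 bp apart and scored 134 to 1013 with a median of 358.5. Between neighbouring summits of the same extended region, whose distance is limited by how the regions were joined, the median over the catalog was 623 bp, and 582 bp in the 812 regions of 5 or more summits.

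The scores of the covered stretches, strong sites included, were set beside those of the rest of each window. In the Cd83 gene body past the first 1000 bases and the 5000 bp beyond the gene, 34 summits had a median score of 358, and 3 of them reached the catalog median. The other 12 summits of the Cd83 window had a median of 1268.5, and 9 of them reached it. At Cd40 the medians were 402 for 21 summits and 675 for 12, with 5 and 4 reaching the catalog median, so that Cd40 showed a smaller contrast. No test was made. Repeats made up a median of 5.47% of the sequence at the summits of the Cd83 stretch and 13.4% at Cd40, as compared to 0% in the rest of both windows, and 1 summit of the Cd83 run lay in a 38 base stretch found 3 times in the genome.

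**Figure D4:**
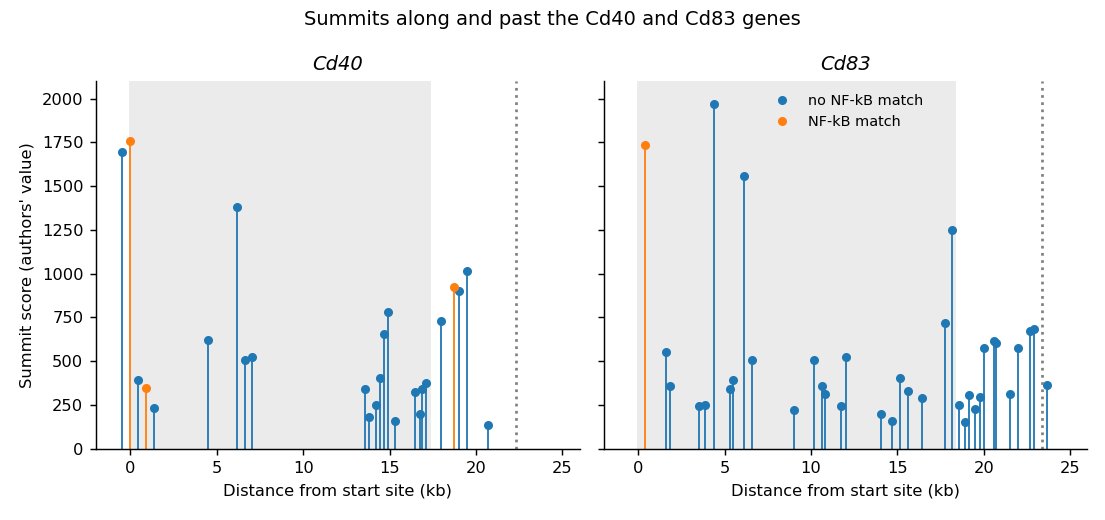
Summits along Cd40 (left) and Cd83 (right), as distance from the most upstream start site (x axis, kb) and score (y axis, authors' value). Grey marks the gene body, the dotted line lies 5 kb past its end, and orange points have an NF-kB match within 100 bp. Beyond the first kb most points lie below the catalog median of 737, apart from single strong sites such as 1969 in Cd83 and 1381 in Cd40.

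The genes with the highest body coverage beside Cd83 and Cd40 were then listed, a choice made after the values were seen. The 3 genes above Cd83 were Tnfaip2 (73.7%), Sqstm1 (53.3%) and Sfi1 (46.7%). Between Cd83 and Cd40 were, in falling order, Mx1, Tnfaip3, Nfkbiz, Sdc4, Rsad2, Gm49339, Tnfrsf1b, Nlrp3, Cacfd1, Icam1, Rhog, Brd2 and Rassf4. No enrichment of any gene group was tested in this list. Whether the peaks of the listed genes lie in sequence found only once in the genome was not checked.

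Consensus sequences of 12 factor families were searched within 100 bp of each summit on both strands. At least one was found at 56.6% of the 152 summits, and at 57.0% of all 84660 summits. The letters were TTCNNNGAA for GAS, TTCNNNNGAA for STAT6, GAAANNGAAA for ISRE, GGAANNGAAA for the PU.1-IRF composite, GAGGAAGT for PU.1/ETS, TGACTCA or TGAGTCA for AP-1, TTGCNNAA for C/EBP, TGTGGTTA or TGTGGTTT for RUNX, TGACGTCA for CRE and GGGGCGGGG for SP/KLF. The degenerate NF-kB and CTCF consensus sequences were also used, and matches of GAS, STAT6, ISRE and PU.1-IRF can overlap each other.

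NF-kB matches were found at 17 of the 152 summits (11.2%, 95% Wilson interval 7.10% to 17.2%, which covers counting error only), as compared to 5.55% of all summits. They occurred at every one of the 7 genes: 3 summits each at Pdcd1lg2, Cd80, Cd86, Cd40 and Cd83, 2 at Icosl and 1 at Cd274, with 1 summit shared by Cd274 and Pdcd1lg2. Of the 17, 10 scored at or above the catalog median. The difference from the catalog depended on the window. Within 50 bp of the summit the shares were 3.95% and 3.40%, within 200 bp 14.5% and 8.05%. Among summits at or above the median score they were 17.9% (10 of 56) and 5.29%, and among the best summits of each extended region 14.1% (10 of 71) and 5.34%. Only 6 of the 17 summits thus had a match within 50 bp.

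For the other 11 families the shares are given beside those over all summits, and no difference from the catalog is read from them. STAT6 matches were present at 13 summits (8.55%, all summits 6.81%) and GAS matches at 11 (7.24%, 6.35%). Both were absent from Cd80 and Cd86. STAT6 matches were counted at 5 summits of Pdcd1lg2, 4 of Cd40, 3 of Cd83, 2 of Cd274 and 1 of Icosl, and GAS matches at 5 of Cd83, 4 of Pdcd1lg2 and 1 each of Cd274, Cd40 and Icosl. AP-1 matches were found at 23 summits (15.1%, 15.9%), C/EBP at 17 (11.2%, 11.4%), PU.1/ETS at 10 (6.58%, 9.08%), RUNX at 6 (3.95%, 4.76%), ISRE at 5 (3.29%, 3.64%), PU.1-IRF and CTCF at 4 each (2.63%, with 4.62% and 3.03% in all summits) and SP/KLF at 3 (1.97%, 4.46%). CRE matches were found at 0 of the 152 summits, as compared to 0.938% of all summits.

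**Figure D5:**
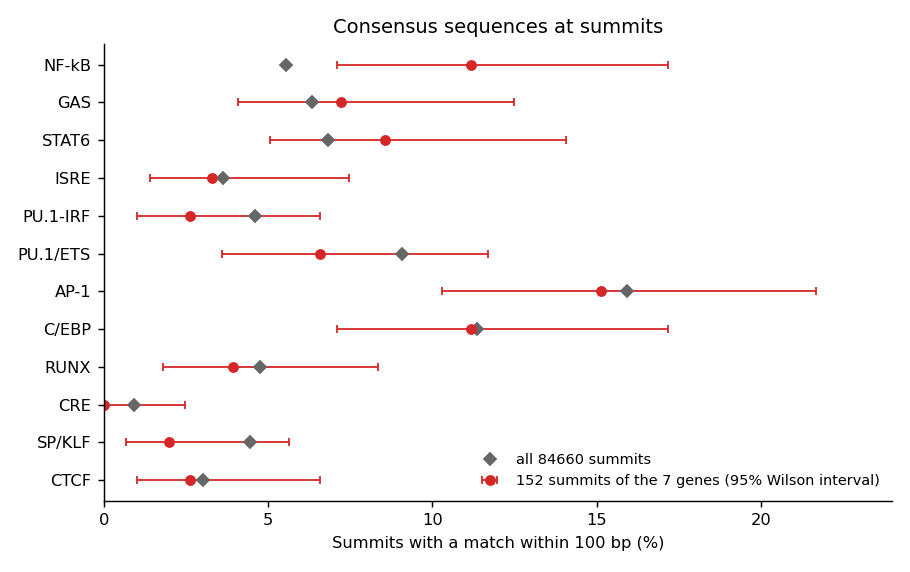
Share of summits with a consensus match within 100 bp (x axis, %) for 12 factor families (y axis). Red points are the 152 summits of the 7 genes with 95% Wilson intervals, and grey diamonds are all 84660 summits. NF-kB matches were at 11.2% of the 152 summits and 5.55% of all summits, and within 50 bp at 3.95% and 3.40%. The intervals cover counting error only, treat neighbouring summits as separate, and are no test.

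The wider pathway was described with fixed gene lists, again by presence of a start site peak (56.5% of all protein-coding genes). All 11 genes of CD40 signalling had one, with a median best score of 1877 and the highest values for Traf2 (2245) and Map3k14 (2219), the kinase NIK. So had all 9 genes that regulate PD-L1, from the transcription factor gene Stat3 (2153) and the interferon receptor chain Ifngr1 (2127) down to Cmtm4 (675), a homologue of the PD-L1 stabiliser Cmtm6 (1825). Both MARCH ligase genes had a peak, with scores of 1619 for March8 and 1036 for March1.

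Of the other B7 family genes, 4 of 5 had a start site peak, with 1786 for Vsir, 1734 for Cd276, 990 for Btnl2 and 654 for Btn2a2 (median 1362), and the exception was Vtcn1. Of the costimulatory ligands of the TNF family 5 of 6 had one, and the exception was Tnfsf4, which encodes OX40 ligand. The scores ranged from 1721 for Tnfsf9 (4-1BB ligand) to 458 for Cd70, with a median of 867. Among the receptors on the T cell side, only 2 of 5 had a peak: Pdcd1, which encodes PD-1 (1036), and Cd28 (823). Ctla4, Icos and Cd40lg had none.

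The cell type label was checked in the same way. All 8 macrophage markers had a start site peak, with a median best score of 1499. A peak was found for 0 of 5 T cell markers, 1 of 5 neutrophil markers (S100a8, 623), 2 of 6 dendritic cell markers (Zbtb46, 1082, and Flt3, 748) and 2 of 5 B cell markers (Ms4a1, 1013, and Pax5, 634). These are presences in a pooled catalog and not levels. The part that other cells in the cultures have in the peaks of the 7 genes was not tested.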

How the data were processed

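The authors had prepared ATAC-seq libraries from BMDMs of 9 groups with 2 libraries each. Per the study's methods, they removed adapters (BBDuk), trimmed single-end reads (Trimmomatic 0.39), mapped them to mm10 through ShortStack, filtered them (SAMtools 1.9) and called peaks with MACS2 2.2.6 without a shift model or local background. Duplicates were kept, reads were extended by a fixed length, and peaks passing a strict q-value in single libraries had to overlap between replicates. No Tn5 shift is named, which can place a summit beside the insertion site, and kept duplicates can raise a peak. The 3 deposited lists give positions of reference peaks, extended regions and summits, and the deposited summit score (scale not stated) was used as given. All 84660 summit names mark a merged call, and 0 columns belonged to other samples. No depth, replicate error or test was therefore available.

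Peaks, summits and regions were counted in the windows of the 7 genes and of all 21938 protein-coding genes (GENCODE M21 on GRCm38, whose chromosomes have mm10 coordinates; a region counted when it overlapped by 1 bp). Start sites were widened by 1000 bp and motif windows by 100 bp. RefSeq promoter entries (GRCm38.p6) matched 4 of the 7 genes, and were used for start positions only. All sequences were read from the genome. Python 3.11.15, pandas 2.3.3 and numpy 2.4.6 were used, and the counting was tested on simulated data. The genes and lists were chosen with earlier results of these data known. For each gene the text names its start site peaks, its best distal summit and the neighbours with a start site in its window, and for each list the genes that go against the rest. Other genes and sites, and the coverage of gene bodies, were chosen after values were seen. Alternatives comprised other start site distances (500 and 2500 bp), windows (20000 and 100000 bp, or without the gene body), motif windows (50 and 200 bp), 1 summit (the best scored) per extended region, and only summits not below the median score.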

Additional observations from a re-analysis of the deposited data

How the results depend on the processing

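The catalog is pooled over all 18 libraries, so that depth, replicate error and the effects of the stimuli could not be assessed. No paired analysis was possible because the lists carry no column per library and no result comes from a test. Of the 24 alternatives run for the main counts and the motif share, 12 stayed within 1.5 times of the reported count, or within its Wilson interval for the share. They include the genes with a start site peak, whose number was lowest (5 of 7) when peaks below the median score were left out, which removes Pdcd1lg2 and Cd80. Of the 104 alternatives for single genes and single motifs, 73 stayed within these limits and 31 did not. With windows of 100000 bp there were 211 reference peaks, 231 summits and 120 extended regions (median 20 per gene), and with 20000 bp the median was 7. Without the summits below the median score there were 55 reference peaks, 56 summits and 40 extended regions (median 6 per gene). The share of summits with any of the 12 consensus sequences was 38.8% with 50 bp, 67.1% with 200 bp and 69.6% at summits at or above the median score, as compared to 41.0%, 70.4% and 58.0% of all summits, and 60.6% at the best summit of each extended region (59.6%). The counts follow the size of the windows and the number of summits kept. The cause of the higher share at summits of at least the median score was not tested. Alternatives for the start site scores (given in the report) and for gene body coverage were added after seeing the data: with the first 1000 bases included, the share was 43.4% for Cd83 and 23.2% for Cd40, and the share from peaks at or above the median score is given in the report, where Icosl had 0%.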
